A study of Mus musculus with 2 samples.

Results

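Nkx2-3, Chil5, Clec4e, Slit2, Serpina3g and Adgrl4 are 6 of the 32285 genes counted in E14.5 mouse fetal liver progenitors. They were picked from the same data because their measured levels led the stem cell cluster, so their height in stem cells below is a description and supports nothing. Single-cell transcriptomes of LSK cells (lineage-negative, SCA1-positive, cKIT-positive progenitors) came from CD1 embryos, an outbred stock, at E14.5. The WT library pooled 2 IκBα WT embryos. The KO library pooled 3 embryos lacking IκBα in every cell (the germline Nfkbia tm1Bal allele), the protein that holds NF-κB factors in the cytoplasm. The sample titles name LT-HSCs, the long-term hematopoietic stem cells, whereas the sorted population is given as LSK, which also holds other progenitors.

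None of the 6 genes is a textbook marker of blood stem cells. Nkx2-3 is a homeodomain transcription factor known from gut and spleen development. Slit2 is a secreted guidance ligand of Robo receptors, and Adgrl4 (also called ELTD1) is an adhesion G protein-coupled receptor known from endothelium. Clec4e (Mincle) is a C-type lectin receptor of myeloid cells for microbial glycolipids, and Chil5 belongs to the chitinase-like proteins. Serpina3g (Spi2A) is an intracellular protease inhibitor that blocks cathepsins and is known as an NF-κB target. Fetal liver stem cells are set apart from the progenitors around them by Hlf, a PAR bZIP factor, and Mecom (EVI1), a zinc finger factor required for stem cell maintenance.

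With 1 library per genotype there was no replicate and no test, and all intervals are 95% intervals that cover counting error only. After filters the WT library held 3458 cells (median 28065 UMIs, the count of original RNA molecules) and the KO library 4417 cells (median 19560 UMIs), and 7 cell barcodes occurred in both. Over all barcodes before filters (3840 in WT and 4928 in KO), Nfkbia, the targeted gene, had 1484 UMIs in the WT library and 7 in the KO library. Male cells (UMIs of Y-linked genes and none of Xist) were 0.116% of the WT library and 17.4% of the KO library. Cells were assigned to classes by marker genes, and a cell was called stem-like when at least 2 of 8 stem markers, Hlf or Mecom among them, were detected and lymphoid-primed markers did not outnumber them. This gave 600 stem-like cells in each library (17.4% of WT and 13.6% of KO cells), with median depths of 17211 and 12331 UMIs. Of these 1200 cells, 416 held exactly 2 markers and so lay at the edge of the gate, 163 in WT and 253 in KO. The KO class thus held more cells at the edge, which the main comparison of KO and WT does not adjust for. Although sorted as LSK, 46.5% of WT and 49.9% of KO cells were erythroid-like by markers. Macrophage-like, endothelial-like and hepatocyte-like cells were present too. The other hematopoietic cells used below as a comparison thus include many erythroid-like cells. None of the 6 genes was a gate marker. In a ranking by fold over all other cells, 5 of the 6 were among the top 10 genes of the stem-like class, from Nkx2-3 (rank 4) to Serpina3g (rank 10), behind Mecom (rank 1) and Hlf (rank 2). Clec4e stood at rank 42 and so did not lead the marker-gated class as it was chosen to do. It was among the top 10 genes of the cells that passed no gate.

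All 6 genes are protein-coding, and their identifiers in the files matched the GENCODE vM21 annotation of the build GRCm38. Nkx2-3 (ENSMUSG00000044220) lies at chr19:43612325-43615892 on the plus strand with 2 exons. Slit2 (ENSMUSG00000031558) lies at chr5:47983138-48307733 on the plus strand, and its main transcript has 36 exons. Adgrl4 (ENSMUSG00000039167) lies at chr3:151437887-151545086 on the plus strand with 16 exons. Clec4e (ENSMUSG00000030142) lies at chr6:123281789-123289870 on the minus strand with 6 exons. Chil5 (ENSMUSG00000043873) lies at chr3:106016919-106032814 on the minus strand with 11 exons. Serpina3g (ENSMUSG00000041481) lies at chr12:104236245-104241939 on the plus strand with 5 exons. Chil5 is overlapped by an annotated gene on the other strand only (Gm42722). Slit2 is overlapped by antisense 4930518C09Rik and by genes on its own strand (Mir218-1 among others). Reads in the stretches that Slit2 shares on its own strand are uncertain. Since 3′ ends were sequenced, the last 500 bases of each main transcript were compared with all other transcripts. In 5 of the 6 genes no word of 50 bases was shared with another gene, and in Serpina3g 2.44% of the words were shared with Serpina3f.

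The promoters (RefSeq, GRCm38.p6, the 250 bases before the annotated start) were searched on both strands for 6 motifs chosen for factors of blood stem cells and for NF-κB. For RUNX factors the letters searched were TGTGGT. For GATA factors, which drive erythroid and stem cell programs, they were AGATAA. For ETS factors they were AGGAAG, and for the PAR bZIP family, to which Hlf belongs, TTANNTAA. For MEIS factors they were TGACAG, and NF-κB was searched by its consensus. All 6 genes had a promoter entry, and 4 of them held a match, while 57.7% of all promoters held at least 1 of these motifs, so that 4 of 6 lay near the background. These 4 sequences are shown because they held a match. Chil5 is read from chr3:106032896-106033145 (minus strand), Clec4e from chr6:123289872-123290121 (minus strand), Serpina3g from chr12:104235897-104236146 (plus strand) and Adgrl4 from chr3:151437632-151437881 (plus strand). Capitals mark the motif matches.
Chil5: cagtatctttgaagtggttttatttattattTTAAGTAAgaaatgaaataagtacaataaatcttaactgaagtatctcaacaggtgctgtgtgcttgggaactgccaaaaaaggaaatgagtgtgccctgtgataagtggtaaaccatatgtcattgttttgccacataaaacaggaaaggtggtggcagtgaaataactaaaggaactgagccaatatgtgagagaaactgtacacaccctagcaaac
Clec4e: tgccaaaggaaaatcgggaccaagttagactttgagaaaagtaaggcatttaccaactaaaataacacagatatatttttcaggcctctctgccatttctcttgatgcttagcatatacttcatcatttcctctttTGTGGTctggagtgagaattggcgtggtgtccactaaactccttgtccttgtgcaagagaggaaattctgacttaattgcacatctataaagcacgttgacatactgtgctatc
Serpina3g: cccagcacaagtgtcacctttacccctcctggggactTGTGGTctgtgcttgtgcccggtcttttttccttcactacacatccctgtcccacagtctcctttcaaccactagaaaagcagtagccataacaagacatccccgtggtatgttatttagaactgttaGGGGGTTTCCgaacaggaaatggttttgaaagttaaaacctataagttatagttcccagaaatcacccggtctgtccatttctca
Adgrl4: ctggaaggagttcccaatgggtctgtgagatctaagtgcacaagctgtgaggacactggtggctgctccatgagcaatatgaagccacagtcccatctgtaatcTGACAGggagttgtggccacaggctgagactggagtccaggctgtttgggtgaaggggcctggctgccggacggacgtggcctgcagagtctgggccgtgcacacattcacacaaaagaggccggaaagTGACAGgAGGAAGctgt

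The capitals in Chil5 are a PAR bZIP match 219 bases before the start, a motif that 5.43% of all 32851 promoters hold. Clec4e holds a RUNX match at 114 bases, as do 14.1% of promoters. Serpina3g holds a RUNX match at 213 bases and an NF-κB match at 85 bases before the start, and the NF-κB consensus occurs in 3.90% of promoters. Adgrl4 holds MEIS matches at 146 and 17 bases (15.9% of promoters) and an ETS match at 10 bases (29.5% of promoters). No motif was shared by more than 2 of the genes, and the windows of Nkx2-3 and Slit2 held none of these letters. GC content ranged from 36.4% in Chil5 to 69.6% in Slit2, against a median of 52.4%. A match is a stretch of letters and not a site of binding.

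Levels are given as CPM, counts per 1e6 UMIs of the class. Since the gate and the ranking used the same cells, the heights in stem-like cells carry no test. In WT stem-like cells Nkx2-3, the transcription factor, reached 57.6 CPM (53.2 to 62.2), and in KO stem-like cells 53.1 CPM (48.2 to 58.4). Its next level was that of the cells that passed no gate (called remaining cells), at 13.2 and 13.1 CPM, and erythroid-like cells had 1.23 and 1.55 CPM. The stem-like level stood clear of all others, while the classes from remaining down to hepatocyte-like did not differ from their neighbours in order beyond counting error in both libraries. Over all other hematopoietic cells the stem-like level was 16.0-fold higher in WT and 16.5-fold higher in KO. Stem-like cells held 65.4% of all Nkx2-3 UMIs in WT and 59.8% in KO.

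To compare shares of positive cells, every cell was thinned to 8000 UMIs, which left out 20 WT and 105 KO stem-like cells as too shallow. Nkx2-3 was then detected in 39.8% of 580 WT and 30.9% of 495 KO stem-like cells. Without thinning the gene was seen in 360 WT and 274 KO stem-like cells of 600 each. Erythroid-like cells (median depths 35246 and 23947 UMIs) were taken as a comparison level. Their shares at 8000 UMIs were 0.881% in WT and 0.692% in KO. Whether UMIs of the 6 genes in these cells are free RNA was not tested. The highest count in a WT erythroid-like cell was 13 UMIs, for Adgrl4. The share of Nkx2-3 in stem-like cells thus lay far above that in erythroid-like cells.

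Slit2, the ligand, stood at 48.4 CPM (44.4 to 52.7) in the WT and 38.3 CPM (34.1 to 42.8) in the KO stem-like cells. The remaining cells had 10.8 and 9.08 CPM, and endothelial-like cells 11.4 and 5.41 CPM, with overlapping intervals. Slit2 was detected in 31.6% of WT and 24.0% of KO stem-like cells at 8000 UMIs, against 1.13% and 1.38% of erythroid-like cells. Its height over the other hematopoietic cells was 19.2-fold in WT and 12.6-fold in KO. In late neutrophil-like cells 0 UMIs were counted in 21 WT cells, which allows a level of up to 3.94 CPM (3 counts).

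Adgrl4, the adhesion receptor, gave the most UMIs of the 6 genes. In stem-like cells 257 CPM (248 to 267) were counted in the WT library and 222 CPM (212 to 232) in the KO library. Other classes expressed it too. Lymphoid-primed-like cells had 133 and 100.6 CPM, remaining cells 102 and 96.5 CPM, and endothelial-like cells 83.7 and 89.5 CPM. At 8000 UMIs it was detected in 82.1% of WT and 77.8% of KO stem-like cells. The shares were 50.8% and 51.7% in endothelial-like cells and 2.96% and 3.32% in erythroid-like cells. Although known from endothelium, Adgrl4 was thus detected in a larger share of stem-like than of endothelial-like cells, and 47.9% of its UMIs in WT and 41.5% in KO lay in the stem-like class.

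Clec4e, the lectin receptor, was not highest in the myeloid classes. WT stem-like cells had 44.9 CPM (41.1 to 49.0) of it and KO stem-like cells 33.5 CPM (29.6 to 37.8), and the remaining cells followed closely with 35.8 and 23.8 CPM. The intervals of these neighbours did not overlap in either library. Macrophage-like cells had 11.03 and 9.27 CPM, early neutrophil-like cells 10.4 and 9.43 CPM, and monocyte/dendritic-like cells 3.64 and 6.91 CPM. At 8000 UMIs it was detected in 28.3% of WT and 20.8% of KO stem-like cells, and in 20.9% and 16.0% of remaining cells. Clec4e stood 6.25-fold in WT and 6.19-fold in KO above the other hematopoietic cells, the smallest such height of the 6 genes. Of all its UMIs 42.2% in WT and 35.7% in KO fell in stem-like cells, the lowest share of the 6 genes in both libraries.

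For Chil5, the chitinase-like gene, WT stem-like cells had 42.7 CPM (39.0 to 46.7) and KO stem-like cells 40.5 CPM (36.2 to 45.2). The remaining cells had 8.78 and 9.41 CPM, and every other class was at or below 5.28 CPM. Chil5 was detected in 29.7% of WT and 25.7% of KO stem-like cells at 8000 UMIs, against 0.503% and 0.508% of erythroid-like cells. Its height over the other hematopoietic cells, 20.5-fold in WT and 19.9-fold in KO, was the largest of the 6 genes, and 70.5% and 64.2% of its UMIs fell in the stem-like class. The same measure was 36.7-fold and 29.8-fold for Mecom and 12.4-fold and 14.51-fold for Hlf, both of which the gate used.

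For Serpina3g, the protease inhibitor, WT stem-like cells had 54.5 CPM (50.3 to 59.0) and KO stem-like cells 79.5 CPM (73.5 to 85.9), with intervals that did not overlap. Remaining cells had 30.6 and 33.9 CPM and megakaryocyte-like cells 22.2 and 20.6 CPM. At 8000 UMIs it was detected in 31.0% of WT and 40.4% of KO stem-like cells, in 16.7% and 17.4% of megakaryocyte-like cells, and in 1.01% and 2.08% of erythroid-like cells. Among the 6 genes Serpina3g had the highest level in megakaryocyte-like cells in both libraries.

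**Figure D1:**
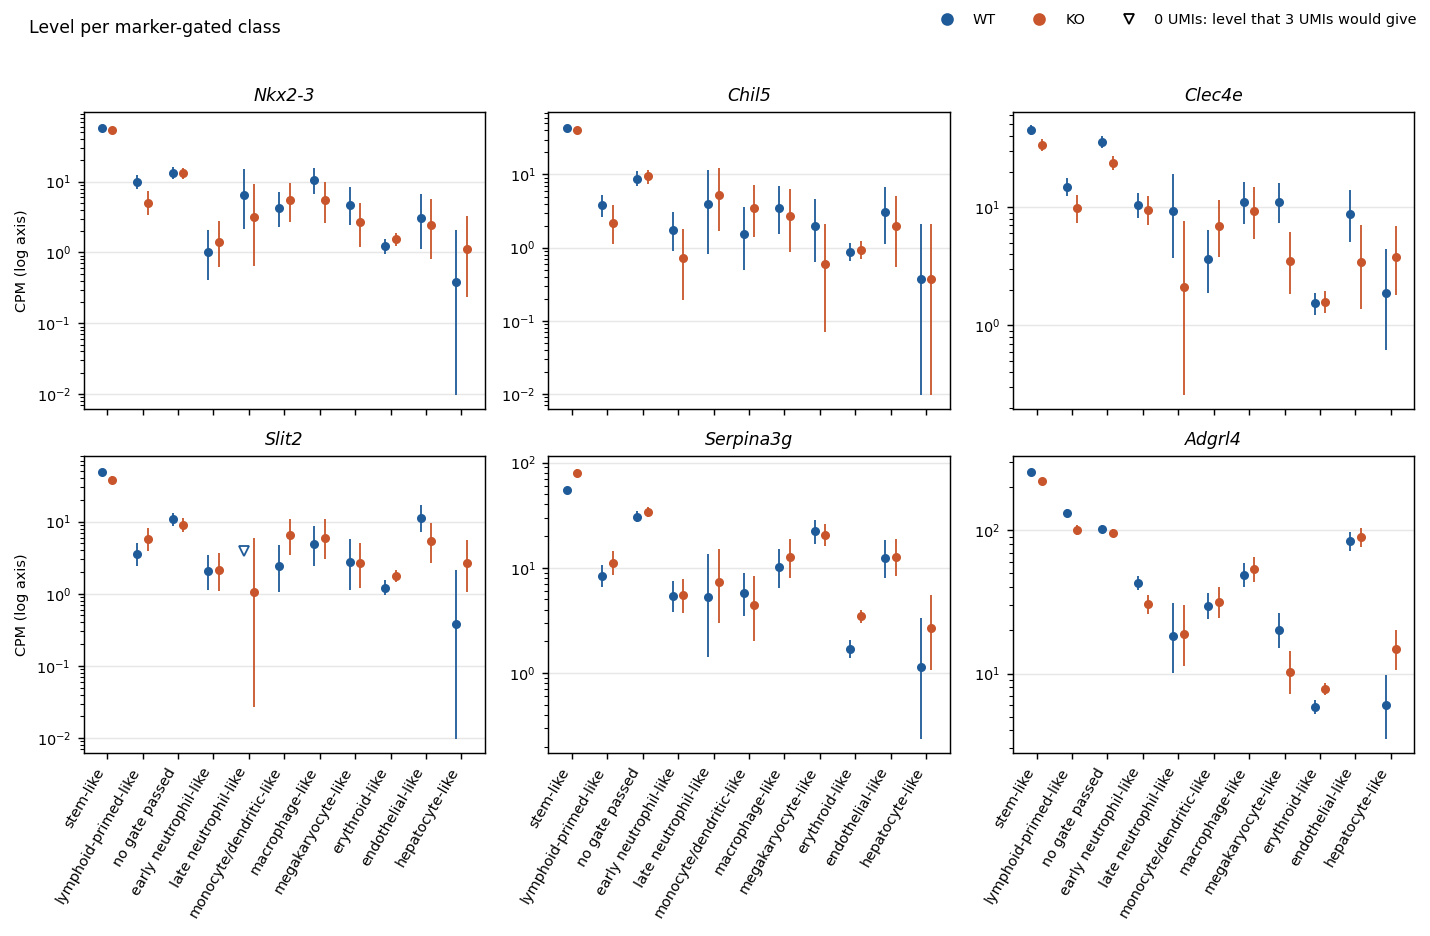
Level of each gene (CPM, log axis) in 11 marker-gated classes, WT in blue and KO in orange, with exact 95% Poisson intervals and a triangle at the level of 3 UMIs where 0 were counted. Each gene is highest in stem-like cells. Outside them, Clec4e stands at 35.8 and 23.8 CPM and Serpina3g at 30.6 and 33.9 CPM in cells that passed no gate, and Adgrl4 at 133 and 100.6 CPM in lymphoid-primed-like cells.

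Within the stem-like class the 6 genes were spread over many cells and were rarely all seen together. At 8000 UMIs 95.7% of WT and 94.1% of KO stem-like cells held a UMI of at least 1 of the genes, and 45.2% and 39.6% held at least 3. All 6 were seen in 1 WT and 1 KO cell. Erythroid-like cells held at least 1 of the genes in 5.53% and 6.65% of cells, and remaining cells in 68.4% and 57.7%. The most common number was 2 of 6, in 30.5% of WT and 28.7% of KO stem-like cells.

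**Figure D2:**
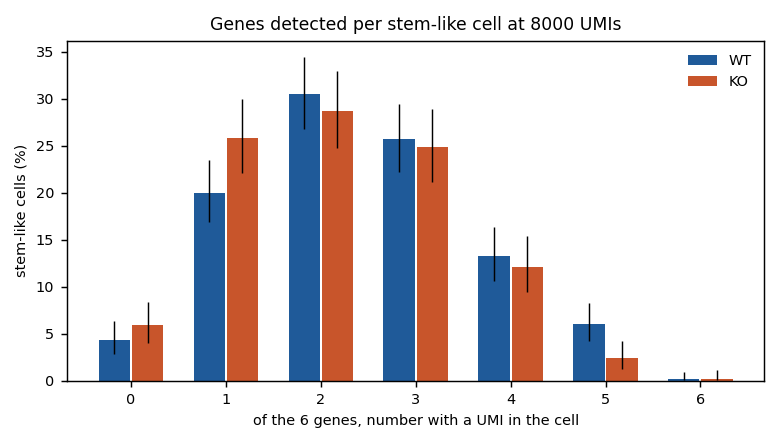
Share of stem-like cells (percent, bars from 0 with exact 95% binomial intervals) by how many of the 6 genes had a UMI after thinning to 8000 UMIs, WT in blue (580 cells) and KO in orange (495 cells). Most cells hold 1 to 3 of the genes, and 1 cell per library holds all 6.

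Among the 15 pairs of genes, joint detection lay close to the product of the single shares, and such weak relations in sparse counts are no finding. The ratio of observed to product ranged from 0.873 to 1.31 in WT and from 0.754 to 1.47 in KO, and the phi coefficient stayed between -0.08 and 0.18. Nkx2-3 and Slit2 were seen together in 15.9% of WT and 10.9% of KO stem-like cells, 1.26 and 1.47 times the product. Nkx2-3 and Clec4e had the lowest ratio in both libraries, at 0.873 and 0.754.

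The overlap with Hlf and Mecom was described over all hematopoietic cells at 8000 UMIs (3225 WT and 3934 KO cells), which did not use the stem-like gate. Depth was equal in these cells, but all genes share the cell's library and the stem-like pattern by which they were chosen. In all 24 combinations of gene, marker and library the share of cells with a UMI was higher in marker-positive than in marker-negative cells. Nkx2-3 was detected in 33.6% of Hlf-positive and 3.64% of Hlf-negative WT cells, and in 26.0% and 2.55% of KO cells. In turn 70.8% of Nkx2-3-positive WT cells and 64.7% of such KO cells held a UMI of Hlf. Mecom-positive cells gave a wider gap, with Nkx2-3 in 46.5% against 5.97% of WT and 35.5% against 3.86% of KO cells.

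Chil5 and Slit2 followed the same order. Chil5 was detected in 25.2% of Hlf-positive and 35.8% of Mecom-positive WT cells, and in 19.5% and 29.1% of such KO cells. Slit2 was detected in 24.6% of Hlf-positive and 39.0% of Mecom-positive WT cells, and in 21.3% and 30.1% of such KO cells. Clec4e had the lowest share in Mecom-positive cells, with 25.8% in WT and 17.4% in KO, and 26.2% of Clec4e-positive WT cells and 19.7% of such KO cells held Mecom. Adgrl4 covered most of the marker-positive cells, with 77.9% of Hlf-positive and 81.6% of Mecom-positive WT cells, but 16.4% of Hlf-negative WT cells held it too. Serpina3g was detected in more KO than WT cells among the Hlf-positive (34.4% and 25.7%) and the Mecom-positive (40.8% and 30.3%).

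Inside the stem-like class, which the gate had already selected on Hlf and Mecom, the genes differed from each other. Slit2 was detected in 42.9% (36.9 to 49.1) of Mecom-positive and 21.8% (17.3 to 26.8) of Mecom-negative WT cells. In KO the shares were 30.1% (24.1 to 36.7) and 19.2% (14.7 to 24.4), and these intervals just touched. Nkx2-3 was detected in 49.6% and 31.4% of these WT cells and in 40.2% and 23.6% of these KO cells, with intervals that did not overlap in either library. Chil5 showed 38.1% and 22.4% in WT and 32.9% and 19.9% in KO, again without overlap. In KO this depended on depth. Without thinning the KO intervals of Nkx2-3 overlapped (44.15 to 54.3 and 32.5 to 46.1). With thinning to 4000 UMIs those of Chil5 did (15.1 to 26.8 and 10.0 to 17.0). For the other 3 genes the intervals overlapped in both libraries. Clec4e was detected in 28.0% of Mecom-positive and 28.5% of Mecom-negative WT cells and 18.7% and 22.5% of KO cells. For Serpina3g the shares were 32.5% and 29.8% in WT and 44.3% and 37.3% in KO, and for Adgrl4 85.8% and 78.9% in WT and 83.1% and 73.6% in KO. By Hlf, 3 genes lay apart without overlap in WT stem-like cells. Nkx2-3 was detected in 43.8% of Hlf-positive and 28.4% of Hlf-negative cells, and Chil5 in 33.8% and 17.6%. Adgrl4 was detected in 85.2% (81.5 to 88.4) and 73.0% (65.1 to 79.9). This, too, depended on depth. With thinning to 4000 UMIs the WT intervals of all 3 genes overlapped. Without thinning those of Nkx2-3 and Chil5 did, with Chil5 at 43.1% and 44.7%. In KO the intervals of all 3 overlapped, with 32.2% and 26.9% for Nkx2-3, 27.1% and 21.0% for Chil5 and 79.0% and 74.0% for Adgrl4. For Slit2, Clec4e and Serpina3g the intervals of Hlf-positive and Hlf-negative stem-like cells overlapped in both libraries.

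**Figure D3:**
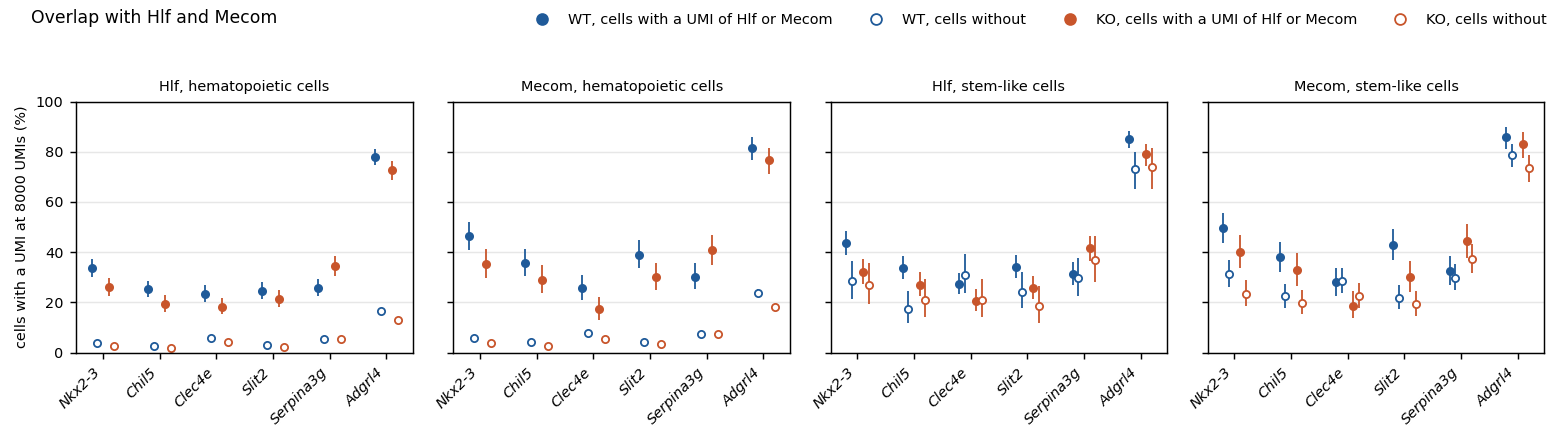
Share of cells with a UMI of each gene at 8000 UMIs (percent) in cells with (filled) and without (open) a UMI of Hlf or Mecom, in all hematopoietic cells (left panels) and in stem-like cells (right panels), WT in blue and KO in orange, with exact 95% binomial intervals. Slit2, Nkx2-3 and Chil5 lie apart by Mecom within WT stem-like cells, whereas Clec4e lies together (28.0% and 28.5%).

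The pattern over classes named further genes. Over 22 points (11 classes in 2 libraries, which share library and depth) and 8952 candidate genes, log2(CPM + 1) of Nkx2-3 was most like that of Chil5 (Pearson r = 0.935), then Gm20467 (0.910) and Fam181b (0.904). Chil5 was most like Nkx2-3 (0.935), the neurofilament gene Nefh (0.877) and Fam181b (0.872). Clec4e was most like Fam181b (0.928), the PD-1 ligand gene Pdcd1lg2 (0.920) and the transcriptional coactivator gene Eya2 (0.893). Slit2 was most like Gimap1os (0.932), the kinase gene Cdk17 (0.931) and Sh3gl3 (0.893). Serpina3g was most like Abhd8 (0.893), the hedgehog pathway inhibitor Sufu (0.882) and the polycomb gene Phc1 (0.881). Adgrl4 was most like Zfp608 (0.952), the cytokine receptor chain gene Il2rg (0.936) and Gimap6 (0.935). So 2 of the 6 genes were each other's nearest, and no other member was among the 3 nearest of any gene.

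KO and WT stem-like cells were then compared gene by gene. Of 11628 genes with at least 20 UMIs in this class, 9.99% differed by a log2 KO/WT of at least 0.5 in either direction, with a median of 0.01 over all genes. Of the 6 genes 1 passed that size. Serpina3g was higher in KO, at 79.5 against 54.5 CPM (638 and 609 UMIs), a log2 KO/WT of 0.54 (0.38 to 0.71). The highest Serpina3g count in a single stem-like cell was 43 UMIs in WT and 11 in KO. The counting intervals do not cover such unevenness among cells. The share of positive stem-like cells at 8000 UMIs was 9.37 percentage points higher in KO (3.50 to 15.2). In female cells alone the log2 KO/WT was 0.54 (0.37 to 0.72), and in KO stem-like cells the male and female levels were 88.3 and 79.3 CPM.

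The other 5 genes were lower in KO by less than 0.5. Clec4e had the largest of these differences, at 33.5 against 44.9 CPM (log2 KO/WT of -0.42, -0.64 to -0.21). Slit2 followed with 38.3 against 48.4 CPM (-0.34, -0.55 to -0.14), and Adgrl4 with 222 against 257 CPM (-0.21, -0.30 to -0.13). For Nkx2-3 (-0.12, -0.30 to 0.06) and Chil5 (-0.08, -0.28 to 0.13) the intervals held 0. Hlf was 199 and 181 CPM (-0.14, -0.23 to -0.04) and Mecom 84.8 and 88.9 CPM (0.07, -0.07 to 0.21). The shares of positive cells at equal depth were lower in KO for 3 genes. How many of all genes differed in this measure was not counted, so the number has no background beside it. The KO minus WT differences were -8.92 percentage points (-14.7 to -3.06) for Nkx2-3, -7.51 (-12.9 to -2.01) for Slit2 and -7.47 (-12.7 to -2.18) for Clec4e. The intervals for Chil5 and Adgrl4 held 0. These shares left out the 20 WT and 105 KO stem-like cells under 8000 UMIs. The least proliferative KO group (defined below) had a median of 7945 UMIs, under that cut, against 12148 in WT. Nkx2-3 and Slit2 had their highest KO levels in that group (90.3 and 64.4 CPM). The part of this in the share differences was not tested.

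The size that Slit2, Clec4e, Nkx2-3 and Serpina3g reached depended on depth. With every cell thinned to 8000 UMIs, Clec4e (-0.64) and Slit2 (-0.59) also passed 0.5 and Serpina3g stood at 0.50. In stem-like cells of at least 8000 UMIs that were not thinned, Slit2 passed at -0.51 and Serpina3g stood below at 0.47. The interval of Nkx2-3 left out 0 in both settings (-0.32, -0.58 to -0.07, when thinned and -0.27, -0.47 to -0.08, when not) as well as with the gate of Hlf and Mecom alone (-0.28, -0.50 to -0.06) and in female cells (-0.21, -0.41 to -0.02). Markers of other cell types also moved with genotype in the stem-like class. The 7 macrophage markers together had 15.8 CPM in WT against 52.2 CPM in KO, with Vsig4 at 0 in both libraries, and the 7 hepatocyte markers 78.9 against 133 CPM. The 7 monocyte/dendritic markers had 15.8 against 31.5 CPM (Siglech at 0 in KO) and the 7 megakaryocyte markers 54.1 against 83.4 CPM (Gp6 at 0 in KO). The part of the hepatocyte, monocyte/dendritic and megakaryocyte markers in the result was not tested. In the 560 WT and 552 KO stem-like cells without a macrophage marker UMI, Serpina3g had a log2 KO/WT of 0.68 (0.50 to 0.85), Clec4e of -0.44 (-0.67 to -0.22) and Slit2 of -0.32 (-0.53 to -0.11). Genotype, library, depth and the embryos pooled cannot be told apart.

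Outside the stem-like class the genotypes differed in other ways. Serpina3g was higher in KO erythroid-like cells, at 3.48 against 1.70 CPM (log2 KO/WT of 1.03, 0.68 to 1.39). In megakaryocyte-like cells, its most highly expressing mature class, the value was -0.10 (-0.63 to 0.43), and in remaining cells 0.15 (-0.10 to 0.39). Clec4e was lower in KO in remaining cells (-0.59, -0.85 to -0.33), lymphoid-primed-like cells (-0.61, -1.10 to -0.14) and megakaryocyte-like cells (-1.65, -2.76 to -0.62). Nkx2-3 was lower in KO lymphoid-primed-like cells (-0.98, -1.65 to -0.35), where 87 and 28 UMIs were counted. Mecom, too, was higher in KO erythroid-like cells (0.90, 0.49 to 1.32). Whether these traces of stem-like genes in erythroid-like cells share a source was not tested.

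**Figure D4:**
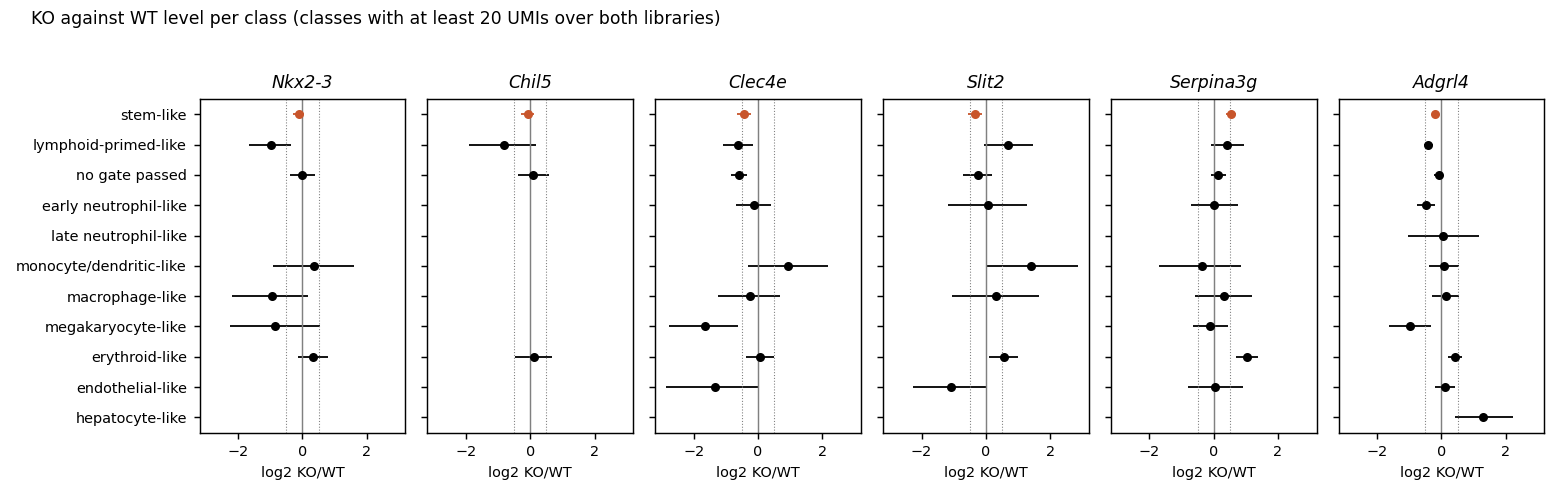
Log2 KO/WT of each gene per class with at least 20 UMIs over both libraries, with exact 95% intervals of counting error (stem-like in orange, dotted lines at a log2 of 0.5 either way). Serpina3g lies to the right in stem-like (0.54) and erythroid-like cells (1.03), and Clec4e lies to the left in stem-like (-0.42), lymphoid-primed-like (-0.61) and remaining cells (-0.59).

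The relation to cycling was described with the share of a cell's UMIs from 23 S phase and 26 G2/M genes. Stem-like cells of both libraries were cut into 3 groups at 0.476% and 0.788%, and the most proliferative group was set against the least. Among all genes tested, 13.6% in WT and 15.2% in KO were lower by a log2 of at least 0.5 in the most proliferative group. In WT 1 of the 6 genes was, Chil5 at 38.3 against 57.7 CPM (log2 of -0.59, -0.91 to -0.27). In KO 3 were, with Slit2 at 32.8 against 64.4 CPM (-0.97, -1.38 to -0.56). Nkx2-3 stood at 49.8 against 90.3 CPM (-0.86, -1.20 to -0.52), and Chil5 at 38.6 against 67.7 CPM (-0.81, -1.20 to -0.42).

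Clec4e and Adgrl4 did not follow this direction. Clec4e stood at 50.7 against 44.6 CPM in WT (0.19, -0.14 to 0.52) and 35.5 against 35.2 CPM in KO (0.01, -0.47 to 0.51). Adgrl4 stood at 282 against 280 CPM in WT (0.01, -0.12 to 0.14) and 231 against 254 CPM in KO (-0.14, -0.32 to 0.05). Serpina3g was lower in the most proliferative group, at 43.7 against 61.0 CPM in WT (-0.48, -0.79 to -0.17) and 78.7 against 102 CPM in KO (-0.37, -0.66 to -0.07). The levels gave no steady order over the 3 groups, since the middle group was the lowest for 5 of the 6 genes in WT and for all 6 in KO (for Slit2 32.8 CPM in WT, 31.6 CPM in KO). Mecom (-0.55 in WT and -0.91 in KO) and Hlf (-0.30 and -0.31) were lower in the most proliferative group as well.

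These differences moved with depth. The least proliferative group had a median of 12148 UMIs in WT and 7945 in KO, against 21047 and 14569 UMIs in the most proliferative. In stem-like cells of at least 8000 UMIs, Slit2 stood at -0.39 (-0.87 to 0.10) in KO, Nkx2-3 at -0.28 (-0.67 to 0.12) and Chil5 at -0.37 (-0.81 to 0.09), and none of these passed 0.5. There only Serpina3g in WT did, at -0.71, with an upper bound of -0.42, while in KO it stood at 0.03 (-0.31 to 0.37). Macrophage markers together had 23.7 CPM in the least and 4.91 CPM in the most proliferative WT group, against 67.1 and 6.68 CPM in KO. Without the cells that held a macrophage marker UMI, Nkx2-3 in KO stood at -0.95, Chil5 at -0.94 and Slit2 at -0.85. The differences in KO thus passed 0.5 without those cells too, and were smaller than 0.5 without the cells under 8000 UMIs. In both settings the groups were cut anew over the cells kept, so they are not the groups above with cells removed.

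**Figure D5:**
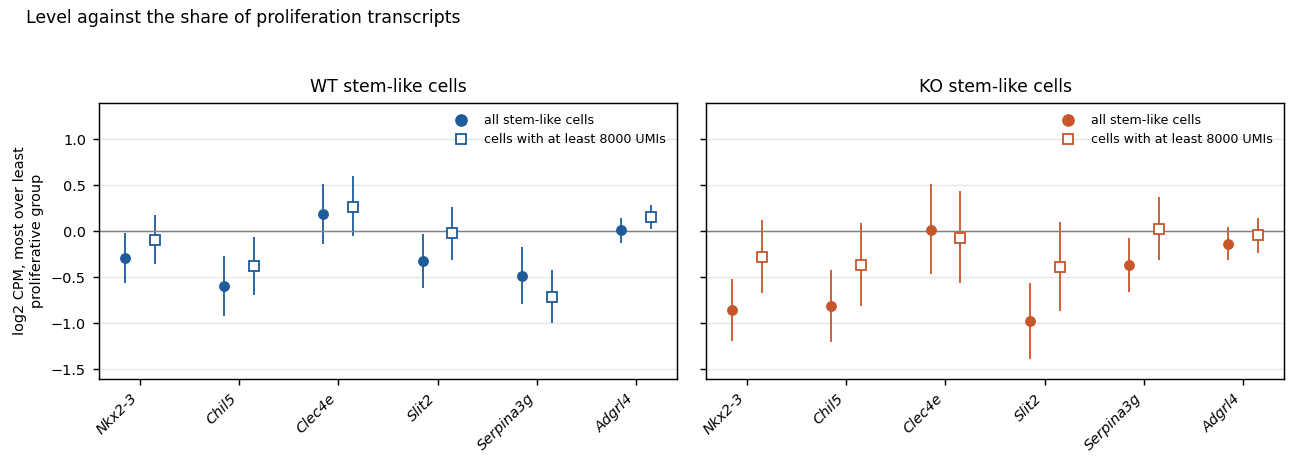
Log2 of the CPM in the most over the least proliferative group of stem-like cells for each gene, WT (left) and KO (right), with exact 95% intervals. Filled circles are all stem-like cells and open squares those of at least 8000 UMIs, cut into groups anew. In KO, Slit2 moves from -0.97 to -0.39 and Nkx2-3 from -0.86 to -0.28, and Clec4e stays near 0 in both.

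The pathways of the 6 genes were followed in stem-like cells through 7 lists with 67 genes, of which 2 were not analysed here and 20 had 0 UMIs. Beside the members, 28 genes had at least 20 UMIs. In this set 7 were higher and 2 lower in KO by at least 0.5, and 19 lay between, against 9.99% of all genes past that size in either direction. The share falls to 3.24% of genes with at least 100 UMIs over both libraries, a floor that 5 of these 9 genes reached (Ctsb, Clec4d, Ctsg, Adgrl2 and Robo3). Of the 7 higher genes, 2 (Serpina3f and Adgra2) stayed past 0.5 with at least 20 UMIs in the stem-like cells without a macrophage marker UMI. There Ctsb, Ctsg and Clec4d lay below 0.5, and Clec4a2 and Adgre1 had fewer than 20 UMIs.

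Of the Nkx2 genes, only Nkx2-3 had a UMI in stem-like cells, and Nkx2-1, Nkx2-2, Nkx2-4, Nkx2-5, Nkx2-6 and Nkx2-9 stood at 0. Of the chitinase-like genes, Chil3 and Chil4 stood at 0 and Chil1 had 4 WT and 2 KO UMIs, so Chil5 was the only listed gene above 1 CPM besides the related hydrolase genes Ctbs (12.4 and 11.1 CPM) and Chid1 (10.6 and 11.96 CPM). Of the Slit ligands, Slit1 and Slit3 stood at 0. Their receptors were low in stem-like cells. Robo4 had 8.24 and 7.85 CPM and was highest in endothelial-like cells (40.3 and 40.8 CPM), and Robo3 had 6.45 and 4.11 CPM (-0.65, -1.29 to -0.03).

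The partners through which Mincle signals were present. The adaptor Fcer1g had 67.8 CPM in WT and 87.1 CPM in KO (0.36, 0.21 to 0.51), the kinase Syk 58.5 and 63.3 CPM, Bcl10 40.8 and 44.1 CPM, Malt1 10.8 and 9.97 CPM, and Card9 3.49 and 2.87 CPM. Clec4d, the neighbouring lectin receptor, had 6.53 and 9.35 CPM (0.52, 0.03 to 1.00), against Clec4e in the other direction. Fcer1g was highest in macrophage-like cells (568 and 950 CPM), and in stem-like cells without a macrophage marker UMI its log2 KO/WT was 0.09 (-0.08 to 0.27). Clec4d stood at 0.46 (-0.04 to 0.96) in those cells.

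Of the Serpina3 cluster, Serpina3f was the only other gene with UMIs in stem-like cells, and 8 genes stood at 0. Serpina3f had 11 WT and 21 KO UMIs (0.985 and 2.62 CPM, log2 KO/WT of 1.41, 0.29 to 2.61), and in stem-like cells without a macrophage marker UMI 5 and 21 UMIs. It was higher in KO as Serpina3g was, and the 3′ ends of both share some words as given above. Among the cathepsins listed with Serpina3g, Ctsb had 48.1 and 71.4 CPM (0.57, 0.40 to 0.74) and Ctsl 62.8 and 63.6 CPM (0.02, -0.15 to 0.18). Ctsb was highest in macrophage-like cells (771 and 1305 CPM) and stood at 0.27 (0.06 to 0.48) without the cells that held a macrophage marker UMI.

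Of the adhesion receptors, Adgrg1 (GPR56, known from stem cells) had 201 and 221 CPM (0.13, 0.04 to 0.23), and went the other way in KO. The latrophilin genes Adgrl1 (11.6 and 9.22 CPM) and Adgrl2 (6.71 and 4.61 CPM, -0.54, -1.15 to 0.04) were far lower, and Adgrl3 stood at 0. Levels were not compared per length, since tags were counted at the 3′ end. Adgra3 stood at 10.8 and 7.85 CPM (-0.46, -0.93 to -0.01). The genes past 0.5 in KO also included Adgre1 (F4/80, a macrophage receptor, 19 and 22 UMIs, 0.69, -0.26 to 1.66) and Adgra2 (10 and 11 UMIs, 0.61, -0.76 to 2.01), both with intervals that held 0. Clec4a2 had 8 and 22 UMIs (1.94, 0.72 to 3.31), and Ctsg, a neutrophil serine protease, 59 and 64 UMIs (0.59, 0.06 to 1.13). Without the cells that held a macrophage marker UMI, Adgre1 had 0 and 6 UMIs and Clec4a2 1 and 5, Ctsg stood at 0.37 and Adgra2 at 0.50 (10 and 10 UMIs).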

How the data were processed

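Per the labels, LSK cells of lineage-depleted fetal livers were profiled with the 10x single cell 3′ v3 protocol. Cell Ranger 6.0.0 and mm10 are named in the submitters' processing notes. The authors deposited unnormalized UMI counts, a matrix of genes by called cells for each library. The annotation release was not given in the sources used here. Coordinates are from GENCODE vM21 and promoters from RefSeq (GRCm38.p6).

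The filter asked for 1000 or more genes and no more than 20% of UMIs from mitochondrial genes, which removed 382 WT and 511 KO barcodes. Classes came from marker lists in a fixed order of gates, with thresholds set after the markers had been seen in the data, and a class of 27 mast/basophil-like cells was left out of the class comparisons. The late neutrophil-like class had 3 early neutrophil markers among its top 10 genes. Scrublet (scanpy 1.11.5, expected rate 5%) called 3.47% of WT and 5.23% of KO cells as doublets, 0 and 2 of them stem-like, and these were kept in the main setting.

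UMIs were summed per class and library (Python 3.11.15, scipy 1.17.1). CPM has exact Poisson intervals, ratios exact conditional intervals and shares exact Clopper-Pearson intervals. PCR copies are collapsed by UMI, and intervals and floors (3 counts) cover counting error only. The ratio was tested on simulated counts. Genes were named by rule: the 6 genes, Hlf, Mecom, Nfkbia, the 3 genes nearest to each in pattern, and genes of the family lists. In those lists the genes past the fold, those at 0 and known partners are given, chosen after their values were seen. The 6 genes and all lists were chosen with earlier results of these data known. The motif list was set with the results in view. Alternatives covered scaling, filters, doublets, gates, sex, depth and grouping. A setting without cells that held a macrophage marker UMI and one with unthinned cells of at least 8000 UMIs were chosen after seeing the data.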

Additional observations from a re-analysis of the deposited data

Results flagged for a closer look

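The genotype difference of 2 genes had opposite signs in different classes, with counting intervals that left out 0 on both sides. The difference between classes was not tested. Slit2 was lower in KO stem-like cells (log2 KO/WT of -0.34) and higher in KO erythroid-like (0.55, 0.10 to 1.00) and monocyte/dendritic-like cells (1.401, 0.02 to 2.88, from 8 and 13 UMIs). In erythroid-like cells its levels were 1.21 and 1.77 CPM, and Hlf (0.26) and Mecom (0.90) were higher in KO there too.

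Adgrl4 was lower in KO stem-like (-0.21), lymphoid-primed-like (-0.41), early neutrophil-like (-0.49) and megakaryocyte-like cells (-0.97), and higher in KO erythroid-like (0.42) and hepatocyte-like cells (1.29, from 16 and 39 UMIs). Erythroid-like cells had 5.84 and 7.83 CPM of it.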

How the results depend on the processing

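No paired analysis was possible because WT and KO had 1 library each. The number of genes past a log2 KO/WT of 0.5 in stem-like cells was 1 of 6. It was 2 with 3 stem markers required (Serpina3g and Clec4e) and 3 with every cell thinned to 8000 UMIs (Serpina3g, Clec4e and Slit2). Serpina3g was higher in KO under all 10 alternatives, from 0.47 in cells of at least 8000 UMIs to 0.77 with a gate of Hlf and Mecom alone. With at least 100 UMIs instead of 20, 3.24% of all genes passed that size. The count of genes lower by 0.5 in the most proliferative group, over both libraries, was 4 of 12 and became 1 with thinning to 8000 UMIs, 1 in unthinned cells of at least 8000 UMIs, and 2 with cells cut into equal parts at the median. It was 6 with G2/M genes alone, 5 with scaling that left out hemoglobin, mitochondrial and ribosomal protein genes, 5 with 3 stem markers and 3 with the gate of Hlf and Mecom alone. Chil5 moved from -0.08 to 0.01 in KO against WT with the gate of Hlf and Mecom alone. With thinning, Serpina3g in KO turned from -0.37 to 0.34. The number of genes whose share of positive stem-like cells differed beyond counting error was 4 of 6, a measure not counted over all genes. It was 1 (Serpina3g) with thinning to 4000 UMIs. Without thinning it was 5, with Serpina3g no longer among them. All 12 heights of at least 2 (log2) over other hematopoietic cells and all 24 overlaps with Hlf or Mecom kept their direction in every alternative. The genes were picked for leading the stem cell cluster, so their choice favoured this direction and it supports nothing. Their sizes changed, and 40 of 108 alternative heights and 45 of 48 alternative overlaps lay outside the main interval. The cause of these changes was not tested. In late neutrophil-like (58) and hepatocyte-like cells (130) only Adgrl4 of the 6 genes reached 20 UMIs over both libraries, so depth gave no ratio for the others.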
